A study of Mus musculus with 14 samples.

Results

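Meg3, Rian, Mirg, Dlk1, H19, Igf2, Igf2r, Slc38a4, Peg3 and Impact are imprinted genes of the mouse. They were chosen by name from the 25131 rows of an RNA-seq count table of embryonic stem cells (ESCs). Earlier results of these data were known when they were chosen. Of the 10, 5 are known for expression from the maternal allele (Meg3, Rian, Mirg, H19, Igf2r) and 5 from the paternal allele (Dlk1, Igf2, Slc38a4, Peg3, Impact). All 10 had a row in the table. Each was compared between Rcor2 knockout (KO) and wild-type (WT) cells, and RCOR2 binding peaks were looked up within 20 kb of each gene. The counts add up both alleles, so the parental names of the groups are background and not something these data measured.

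The series holds 14 samples in 8 groups, of which those used here were RNA-seq of Rcor2 KO ESCs (2 libraries), RNA-seq of WT ESCs (2 libraries) and chromatin immunoprecipitation (ChIP) of RCOR2 in ESCs that expressed an HA-tagged RCOR2 (2 samples, 1 merged peak list). All of these cells were labelled as ESCs of the C57BL/6 background and grown on gelatin in serum with leukemia inhibitory factor and 2i, the MEK inhibitor PD0325901 with the GSK3 inhibitor CHIR99021. The labels give neither the age nor the sex of the embryo behind the line, nor the number of clones, nor the part of Rcor2 that was removed. The ChIP was made with anti-HA resin, so its peaks belong to the tagged protein, and the control cells were labelled WT in one and mCherry expressing in the other.

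Genomic imprinting keeps a gene active on 1 parental chromosome and silent on the other. At many imprinted genes the choice is carried by DNA methylation laid down in the germ line at short control regions. The domain on mouse chromosome 12 holds the paternally expressed genes Dlk1, Rtl1 and Dio3 and a row of maternally expressed non-coding RNAs, Meg3, Rian and Mirg, which host small nucleolar RNAs and microRNAs. The domain is known in ESC biology because its maternal RNAs are silenced in many cultured pluripotent lines. RCOR2 is a corepressor of the CoREST family that works with the histone demethylase LSD1 and with histone deacetylases.

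The 4 libraries held between 1286393 and 2951498 counts, so genes of the Meg3 domain were read from 66 counts at most per library. Of 10241 genes that passed the filter on low counts, 1062 were called higher and 952 lower in KO at an adjusted p under 0.05 (edgeR quasi-likelihood test, Benjamini-Hochberg adjustment), and the median log2 fold change was −0.02. The median over a chromosome was 0.92 on chromosome 6, 0.52 on chromosome 8, 0.48 on chromosome 3 and −0.49 on chromosome 11, where KO values stood apart as a block. None of the 10 genes lies on these. Rcor2 itself stood at 81.4 ± 0.117 CPM (counts per 1e6 counts, after scaling the libraries to each other) in WT and 54.0 ± 0.212 in KO (SD, n = 2 each), a log2 fold change of −0.59 (SE 0.23) with an edgeR adjusted p of 0.0636. As the removed part of the gene is not named in the labels, this level does not check the genotype. All 10 ESC markers, Pou5f1, Sox2 and Nanog among them, passed the filter, with a summed level of 3268 to 3476 CPM in WT and 3843 to 3963 in KO. Of these markers, Nanog (log2 fold change 0.48), Klf4 (1.30) and Tbx3 (1.37) were called higher and Dppa5a (−0.47) lower. After centring on each chromosome, Nanog, on chromosome 6, was called lower instead, at −0.44 (edgeR adjusted p 0.0361). Sox2, on chromosome 3, moved from −0.24, not called, to a lower call at −0.72 (edgeR adjusted p 0.000189). Zfp42, on chromosome 8, moved from 0.46 to −0.05 and was called in neither.

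Of the 10 imprinted genes, 5 were called lower in KO (Meg3, Igf2r, Slc38a4, Peg3 and Impact), 0 were called higher, 2 were tested and not called (H19 and Igf2), and 3 were under the filter (Rian, Mirg and Dlk1). Over all genes tested, 19.7% were called in either direction, 10.4% higher and 9.3% lower. As the 10 genes were chosen with earlier results of these data known, setting them beside these shares is no test. The lower calls came from both parental groups, 2 maternally and 3 paternally expressed. The 7 tested genes had a median log2 fold change of −0.96, with −1.15 for the 3 maternally and −0.85 for the 4 paternally expressed. Meg3 passed the filter only through its WT libraries and Igf2 only through its KO libraries, so these medians describe the genes that could be tested and not all 10. In CPM, both KO libraries lay below both WT libraries for Meg3, Rian, H19, Igf2r, Slc38a4, Peg3 and Impact, an arrangement seen in 28.8% of all tested genes. Igf2 was the 1 gene of the 10 with both KO libraries above both WT libraries, as were 28.1% of all tested genes. Dlk1 and Mirg overlapped between the groups.

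**Figure D1:**
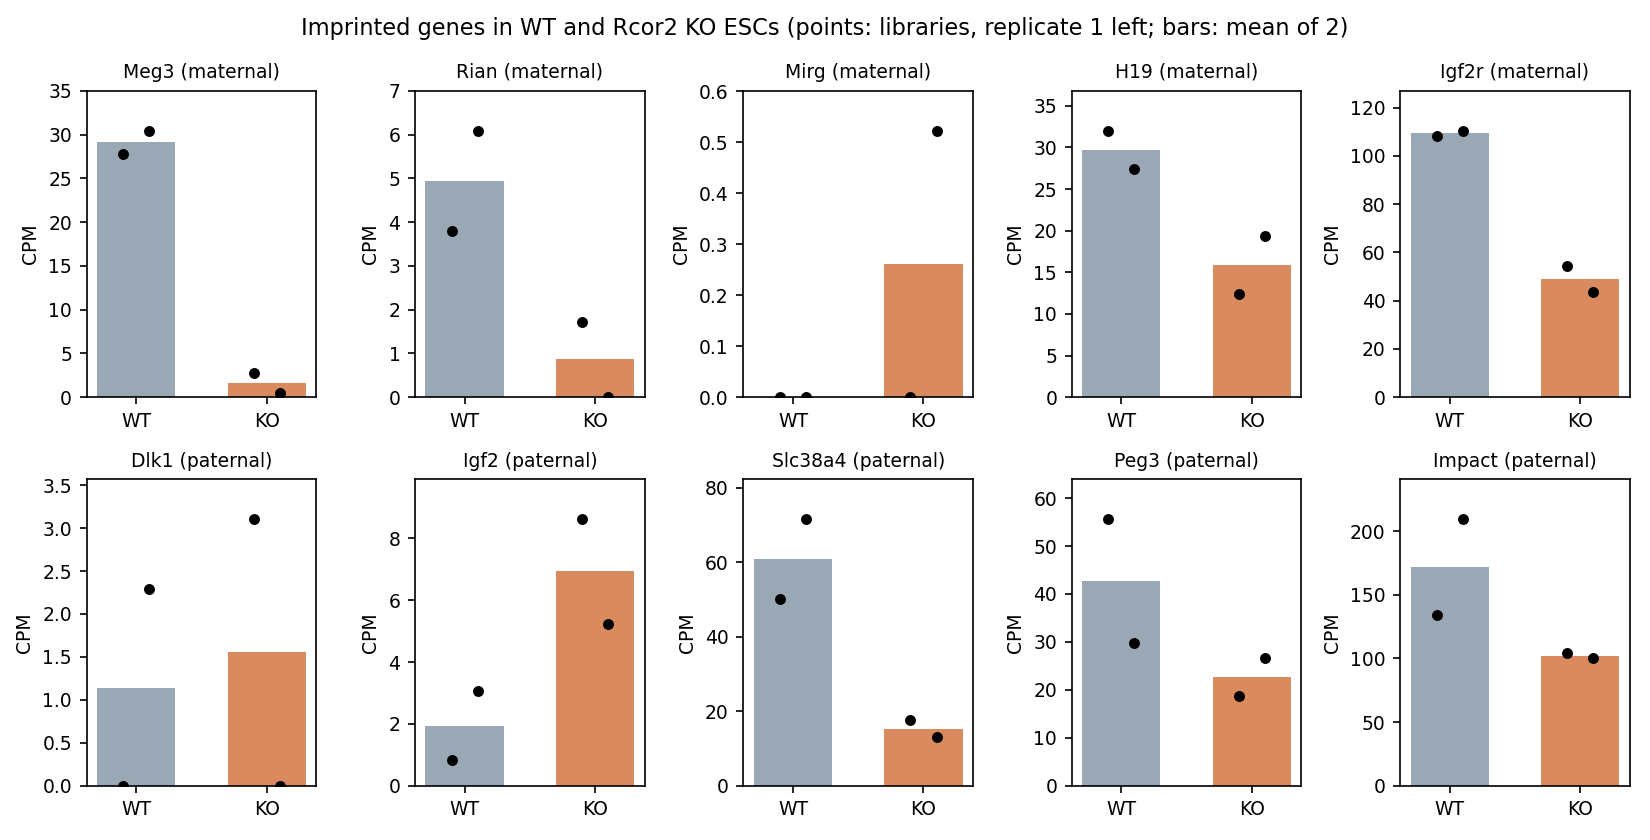
Level of each of the 10 imprinted genes in CPM (y axis, its own scale in each panel, starting at 0) in the WT and KO groups. Points are the 2 libraries of a group, replicate 1 on the left, and bars are their mean. Meg3 fell from 27.8 and 30.5 CPM to 2.76 and 0.523 CPM, and Igf2 is the gene whose KO points are both above its WT points.

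Meg3, the long non-coding RNA that opens the maternal transcripts of the domain, showed the lowest KO level relative to WT among the 7 tested genes. Its 2 WT libraries had 66 and 40 counts, or 27.8 and 30.5 CPM, and its 2 KO libraries had 8 and 1 counts, or 2.76 and 0.523 CPM. The WT libraries were close to each other and both KO libraries were near the bottom of what could be counted. The mean was 29.1 ± 1.88 CPM in WT and 1.64 ± 1.58 CPM in KO (SD, n = 2 each), which is a log2 fold change of −3.95 (SE 0.59), or 15.5-fold lower, with an edgeR adjusted p of 5.76e-07. The call was kept in all 11 alternative analyses, but the size rested on few KO counts: it was −5.63 without the first KO library and −3.35 without the second. In bulk RNA, fewer cells that make a transcript and less of it per cell cannot be told apart. Meg3 lies at chr12:109540996-109571729 (GRCm38, plus strand).

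Rian (chr12:109603945-109661716), the next maternal non-coding RNA and host of a small nucleolar RNA cluster, was low everywhere. Its counts were 9 and 8 in WT and 5 and 0 in KO, or 3.79 and 6.10 CPM against 1.73 and 0 CPM. The groups did not overlap, but Rian did not reach the filter minimum of 4.64 CPM in 2 libraries. From the summed counts, KO over WT was 0.218, with an exact 95% interval of 0.0629 to 0.616 that covers counting error only. In the edgeR fit without a filter its log2 fold change was −2.24 (SE 1.24) with an adjusted p of 0.304, so no change was called. The small nucleolar RNA AF357425, a row inside the interval of Rian that was picked after its values were seen, had 7 and 7 counts in WT and 0 and 0 in KO. With KO set to a floor of 3 counts over the group, WT over KO was 6.29-fold. That value takes the 14 WT counts as exact and leaves out their error, so it is no lower bound. As the row was picked for its values, it is no test of the domain.

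Mirg (chr12:109734981-109749458), the microRNA host at the far end of the row, had 0 and 0 counts in WT and 0 and 1 in KO, so no direction can be read. None of the 60 microRNA rows between Dlk1 and Mirg had a count in any library. RefSeq places 57 hairpins with 112 mature microRNAs in that interval, and the empty rows do not show the level of the mature forms. Meg3, Rian and Mirg together had 75 and 48 counts in WT and 13 and 2 in KO. The whole interval, 73 rows from Dlk1 to Mirg, had 85 and 59 counts in WT and 23 and 2 in KO. Meg3 gave most of these counts in WT, and Dlk1 gave 9 of the 23 in the first KO library.

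Dlk1 (chr12:109452485-109463336), the paternally expressed membrane protein related to the Notch ligands, had 0 and 3 counts in WT and 9 and 0 in KO. The groups overlapped, and the edgeR fit without a filter gave a log2 fold change of 0.78 with an adjusted p of 0.841. Rtl1, a paternally expressed gene derived from a retrotransposon, had 3 and 0 counts in WT and 1 and 0 in KO. Rtl1 overlaps Meg3 and Rian on the RefSeq map, and without a stated strand the reads of overlapping genes cannot be told apart. The third paternal gene, Dio3, encodes the deiodinase that inactivates thyroid hormone. Dio3 had 6 and 3 counts in WT and 30 and 17 in KO, or 2.53 and 2.29 CPM against 10.4 and 8.89 CPM, with no overlap. Its log2 fold change of 1.97 (SE 0.74) had an edgeR adjusted p of 0.0499, it passed the filter only through KO, and the call was lost in all 11 alternative analyses.

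Within 1 Mb of the interval from Dlk1 to Mirg, 7 genes other than the 10 passed the filter. Dio3 was called higher, 0 were called lower, and their median log2 fold change was 0.24. The transcription factor gene Yy1 had a log2 fold change of −0.02 (SE 0.21), the tryptophan tRNA ligase gene Wars 0.10 (SE 0.25), the phosphatase subunit gene Ppp2r5c 0.14 (SE 0.16) and the dynein heavy chain gene Dync1h1 0.28 (SE 0.20). The chaperone gene Hsp90aa1 had 0.24 (SE 0.14) and Wdr20 0.34 (SE 0.43). On chromosome 12 as a whole the median was −0.04. None of these neighbours was lower by more than its standard error, while Meg3 stood at −3.95.

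**Figure D2:**
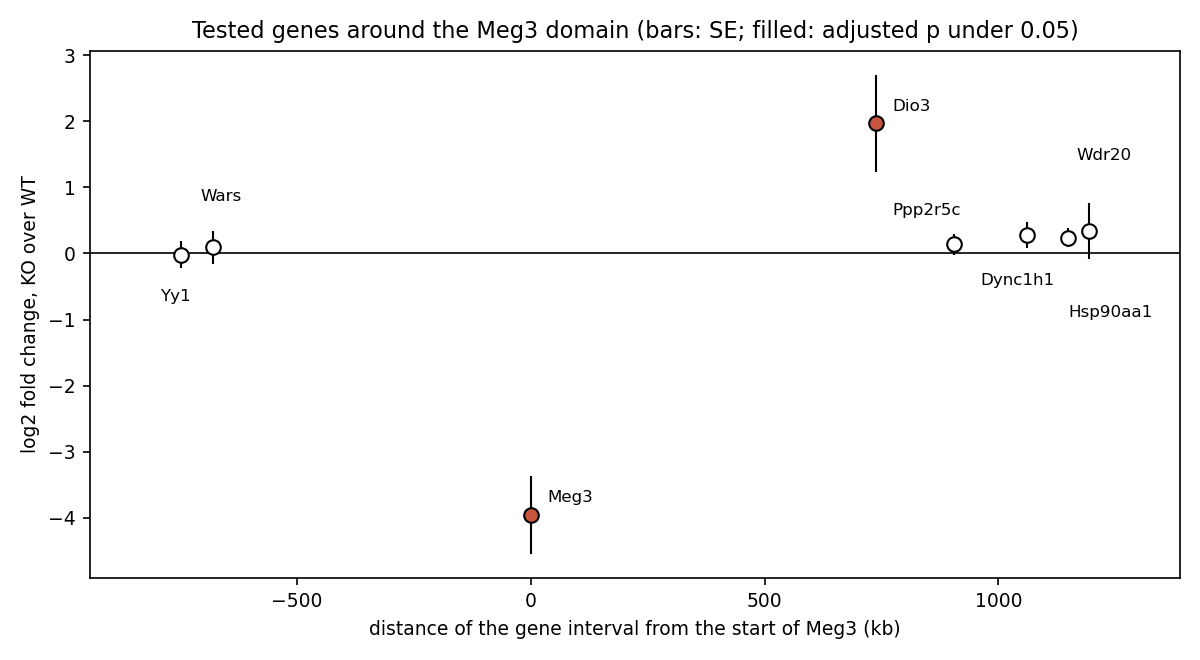
Log2 fold change of KO over WT (y axis) for Meg3 and the 7 other tested genes within 1 Mb of the interval from Dlk1 to Mirg, by distance of the gene interval from the start of Meg3 in kb (x axis). Bars are the standard error and filled points passed an adjusted p under 0.05; Meg3 sits at −3.95 and 6 of its neighbours between −0.02 and 0.34.

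Of the 10 genes, 7 had a peak summit of tagged RCOR2 inside the gene or within 20 kb of it (Meg3, Rian, Igf2, Igf2r, Slc38a4, Peg3 and Impact), and Mirg, Dlk1 and H19 had none. Of all genes placed on RefSeq, 74.3% had such a summit, so carrying one does not set these genes apart. The list of 53366 peaks came from the authors' merged ChIP libraries, so its values have no replicate spread, and each fold enrichment and −log10 q is the authors' own. Over the whole list the median fold was 4.38 and the median −log10 q was 5.08. The 7 genes held 22 peaks, of which 10 reached a −log10 q of at least 5. When a fold of at least 5 was asked for, 4 genes kept a peak (Meg3, Igf2, Igf2r and Slc38a4), as did 50.2% of all genes placed.

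Meg3 had the most peaks of the 10 genes, with 7, while 87.1% of all genes placed had fewer. They formed a cluster of 5 between 14430 and 12172 bp before the first RefSeq start and a pair inside the gene, 1090 and 2063 bp after it. The strongest, at chr12:109527444-109527695 in the upstream cluster, had a fold of 6.39 and a −log10 q of 11.1 and was stronger than 87.0% of all peaks. The next, at chr12:109528322-109528568, had a fold of 6.21 and a −log10 q of 9.85. The other 3 of the cluster were weaker, with folds of 2.65 to 3.98. The pair inside Meg3, at chr12:109541977-109542341 and chr12:109542955-109543181, had folds of 5.30 and 4.61. Rian had 1 peak, 9010 bp before its start at chr12:109594810-109595098, with a fold of 4.61. The methylated control region of the domain is known to lie between Dlk1 and Meg3. Its borders are not part of the files used here, so the overlap of the upstream peaks with it was not tested.

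RefSeq promoter windows of 300 bases (250 before a start and 50 after it, GRCm38.p6) were matched for 8 of the 10 genes, 14 windows in all. A peak covered part of 23.0% of the 32851 windows in the table and of 1 of these 14, that of Igf2r. No peak covered the window of the first Meg3 start, but the outermost peak of its upstream cluster covered part of a window of Gm34081, a long non-coding RNA gene on the opposite strand that has no row in the count table. Both windows are shown because they mark where RCOR2 peaks did and did not fall in front of Meg3. In the Meg3 window (chr12:109540746-109541045, plus strand) the capitals mark the reverse complement of TGCCGC, the motif of the imprint-keeping zinc finger protein ZFP57. In the Gm34081 window (chr12:109526220-109526519, minus strand) they mark the 61 bases covered by the peak.
Meg3: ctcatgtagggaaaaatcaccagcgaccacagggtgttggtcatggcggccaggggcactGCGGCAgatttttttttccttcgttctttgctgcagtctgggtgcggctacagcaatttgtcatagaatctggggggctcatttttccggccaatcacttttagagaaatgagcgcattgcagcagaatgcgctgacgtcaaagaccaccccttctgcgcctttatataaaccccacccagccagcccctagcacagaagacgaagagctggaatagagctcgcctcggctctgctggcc
Gm34081: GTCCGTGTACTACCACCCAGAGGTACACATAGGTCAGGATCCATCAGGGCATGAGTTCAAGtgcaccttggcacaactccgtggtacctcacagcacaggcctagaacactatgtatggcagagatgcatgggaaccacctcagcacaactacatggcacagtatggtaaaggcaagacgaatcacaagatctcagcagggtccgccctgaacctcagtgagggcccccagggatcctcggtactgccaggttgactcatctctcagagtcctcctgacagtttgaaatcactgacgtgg
The Meg3 window held 13 CpG dinucleotides, against a median of 7 over all windows, and 62.1% of all windows had fewer. TGCCGC was searched on both strands and was present in 11.6% of all windows. Besides the first start of Meg3, it was found in 1 of the 4 windows of Igf2. Such a match is a stretch of letters and says nothing of binding. The windows of Rian, Mirg and Dlk1 held 0, 10 and 9 CpGs and had no TGCCGC. The first and second parts of the motif of REST, a factor that recruits CoREST complexes, TTCAGCACC and GGACAGCG, were in none of the 14 windows and in 0.371% and 1.26% of all windows.

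**Figure D3:**
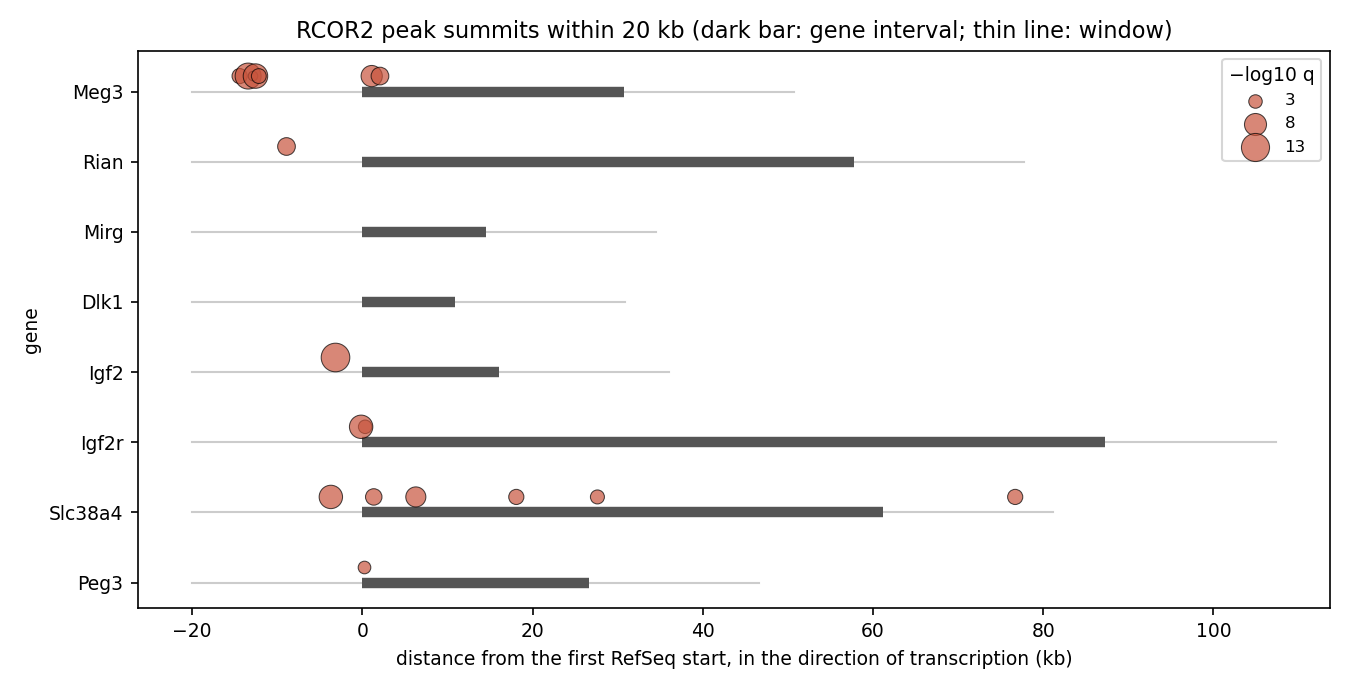
Summits of RCOR2 peaks within 20 kb of the 8 genes that have a RefSeq start in the table, by distance from the first start in the direction of transcription in kb (x axis), 1 row per gene. Dark bars are the gene, thin lines the window searched, and the area of a circle grows with the −log10 q; Meg3 has 5 circles upstream and 2 inside, and Mirg and Dlk1 have none.

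H19 and Igf2, neighbours on chromosome 7 that share a control region and enhancers, had fold changes of opposite sign, and neither passed the test. H19, a maternally expressed non-coding RNA abundant in embryonic tissue, had 32.0 and 27.4 CPM in WT and 12.4 and 19.4 CPM in KO, without overlap. Its mean was 29.7 ± 3.26 CPM in WT and 15.9 ± 4.90 CPM in KO (SD, n = 2 each), a log2 fold change of −0.94 (SE 0.38) with an edgeR adjusted p of 0.0753. With limma-voom it was −1.01 with an adjusted p of 0.0361, the 1 alternative of 11 that called it. Igf2, the paternally expressed growth factor, had 0.843 and 3.05 CPM in WT and 8.63 and 5.23 CPM in KO, from 2 and 4 against 25 and 10 counts. Both KO libraries were above both WT libraries, with means of 1.95 ± 1.56 and 6.93 ± 2.40 CPM. The log2 fold change of 2.00 (SE 0.85) had an edgeR adjusted p of 0.0882, was called in none of the 11 alternatives, and ran from 1.21 without the first WT library to 2.98 without the second. The antisense row Igf2os had 0 and 0 counts in WT and 3 and 1 in KO, and the same limit holds for this overlapping pair. The lysosomal protease gene Ctsd, the 1 other tested gene within 200 kb of H19, had a log2 fold change of 0.35 (SE 0.17) and was not called.

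H19 lies at chr7:142575530-142578146 and had no summit within 20 kb, although 1 entered when the distance was raised to 50 kb. Igf2 lies at chr7:142650768-142666816 on the minus strand and had the strongest peak of the 22, at chr7:142669718-142670409. Its summit lay 3261 bp before the first start, and the peak had a fold of 7.13 and a −log10 q of 13.5, and was stronger than 90.3% of all peaks. Its 692 bp made it wide beside the median width of 260 bp in the list. The 4 windows at Igf2 starts held between 2 and 24 CpGs and none was covered by a peak.

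Igf2r encodes the receptor that clears IGF2 from the cell surface and is expressed from the maternal allele in most tissues, where the antisense RNA Airn silences the paternal copy. It had 108 and 110 CPM in WT and 54.5 and 43.4 CPM in KO. The WT libraries were nearly equal and both KO libraries lay far below them. The mean was 109 ± 1.51 CPM in WT and 49.0 ± 7.86 CPM in KO (SD, n = 2 each), which is 2.22-fold lower, with a log2 fold change of −1.15 (SE 0.22) and an edgeR adjusted p of 9.48e-05. This call was kept in all 11 alternatives. Airn, which overlaps Igf2r, had 1 and 0 counts in WT and 5 and 0 in KO and could not be tested. The 4 tested genes within 200 kb of Igf2r, Mrpl18, Tcp1, Acat2 and Wtap, had log2 fold changes of 0.18, 0.26, −0.38 and −0.48, and none was called.

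Slc38a4 encodes an amino acid transporter expressed from the paternal allele, with a known part in placental growth. It had 50.2 and 71.6 CPM in WT and 17.6 and 13.1 CPM in KO. The lowest WT library was still well above the highest KO library. The mean was 60.9 ± 15.2 CPM in WT and 15.3 ± 3.20 CPM in KO (SD, n = 2 each), which is 3.86-fold lower, with a log2 fold change of −1.95 (SE 0.32) and an edgeR adjusted p of 4.83e-06. As with Meg3 and Igf2r, all 11 alternatives kept the call. Both other tested genes within 200 kb were also called lower, while the median of chromosome 15 was −0.00. The long non-coding RNA gene Gm32885 had 121 and 54 counts in WT and 3 and 1 in KO, a log2 fold change of −5.71 (SE 0.56) with an edgeR adjusted p of 3.98e-12 (−6.30 without the first KO library). Gm32885 passed the filter only through WT, the group where it is high. Pced1b had −0.95 (SE 0.31) with an edgeR adjusted p of 0.0214. The Pced1b call was lost with DESeq2, without the second KO library (−0.79) and without the second WT library (−0.37).

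Igf2r and Slc38a4, both lower in KO, differed in how RCOR2 peaks met their starts. Igf2r (chr17:12682406-12769706, minus strand) had 1 summit 152 bp before its start, in a peak at chr17:12769732-12770067 with a fold of 5.75 and a −log10 q of 9.00, and another 323 bp after it with a fold of 3.54. Slc38a4 (chr15:96994816-97055956, minus strand) had 6 peaks, 4 of them inside the gene and none on the windows of its 3 starts. The strongest was 3710 bp upstream of the first start, at chr15:97059562-97059756, with the same fold of 5.75, and the widest, chr15:97049179-97049984, spanned 806 bp inside the gene. The windows at the first start of each are printed to show this contrast. In the Igf2r window (chr17:12769657-12769956, minus strand) capitals mark the 225 bases covered by the peak, and in the Slc38a4 window (chr15:97055907-97056206, minus strand) they mark its 5 CpG dinucleotides.
Igf2r: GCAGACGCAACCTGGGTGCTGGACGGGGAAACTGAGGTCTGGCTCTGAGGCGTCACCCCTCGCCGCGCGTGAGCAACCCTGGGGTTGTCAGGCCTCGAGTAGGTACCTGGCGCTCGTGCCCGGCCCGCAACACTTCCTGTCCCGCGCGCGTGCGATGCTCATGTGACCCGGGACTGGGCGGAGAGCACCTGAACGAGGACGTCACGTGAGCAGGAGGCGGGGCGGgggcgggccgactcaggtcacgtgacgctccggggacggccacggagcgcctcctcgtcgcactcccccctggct
Slc38a4: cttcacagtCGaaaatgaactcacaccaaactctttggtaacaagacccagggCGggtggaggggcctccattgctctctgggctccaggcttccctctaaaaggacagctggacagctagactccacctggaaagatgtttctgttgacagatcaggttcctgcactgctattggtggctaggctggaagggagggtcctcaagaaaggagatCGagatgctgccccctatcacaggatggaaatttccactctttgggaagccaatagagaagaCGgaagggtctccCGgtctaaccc
The Igf2r window held 34 CpGs, more than 92.3% of all windows, and a GC content of 70.7%, against a median GC content of 52.7%. All 3 windows of Slc38a4 held 5 CpGs, and 38.0% of all windows had fewer. Of all tested genes, 9.41% of the 9483 with a peak within 20 kb were called lower in KO, and 8.20% of the 732 without one. The shares called higher were 10.4% with and 9.56% without a peak, and the median log2 fold changes were −0.02 and 0.01.

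Peg3, a paternally expressed zinc finger gene at chr7:6703892-6730462 known for its part in maternal behaviour and growth, had 55.6 and 29.7 CPM in WT and 18.6 and 26.7 CPM in KO. The second WT library was only just above the second KO library. The means were 42.7 ± 18.3 CPM in WT and 22.7 ± 5.69 CPM in KO (SD, n = 2 each), and the log2 fold change of −0.96 (SE 0.33) had an edgeR adjusted p of 0.0308. The call was lost without the first WT library (−0.39, adjusted p 0.617), without the first KO library (−0.71, adjusted p 0.286), with DESeq2 (adjusted p 0.175) and with chromosomes 3, 6, 8 and 11 left out (adjusted p 0.0511). Usp29, which starts beside Peg3 and is imprinted with it, had 11.0 and 9.90 CPM in WT and 6.21 and 2.09 CPM in KO, a log2 fold change of −1.26 (SE 0.66) that was not called (edgeR adjusted p 0.185). Peg3 had 1 peak, with its summit 179 bp after the start at chr7:6730148-6730278. It was weak, with a fold of 3.46 and a −log10 q of 2.62, and 5.78% of all peaks were weaker. The Peg3 window held 13 CpGs.

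Impact, the paternally expressed inhibitor of the translation kinase GCN2, had 134 and 210 CPM in WT and 104 and 99.9 CPM in KO. Both KO libraries were nearly equal, and the spread lay between the WT libraries. The means were 172 ± 53.1 CPM in WT and 102 ± 2.80 CPM in KO (SD, n = 2 each), and the log2 fold change of −0.74 (SE 0.19) had an edgeR adjusted p of 0.00391. Without the second WT library it was −0.40 (adjusted p 0.250) and without the second KO library −0.70 (adjusted p 0.0737), so neither of those fits called it. Osbpl1a, a lipid-binding protein gene and the 1 other tested gene within 200 kb, had −0.67 (SE 0.23) with an edgeR adjusted p of 0.0315, and lost its call in 7 of 11 alternatives, among them without either KO library and without the first WT library. Impact (chr18:12954690-12992950, median of its chromosome −0.13) had 4 peaks within 20 kb, 1 of them inside the gene, with folds of 3.46 to 4.61. The summits at chr18:12941619 and chr18:12941867 lay inside the interval of Osbpl1a, which ends at 12941871.

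The pattern of Meg3 over the 4 libraries was set beside that of every tested gene by the Euclidean distance in log2 CPM (prior count 2), each gene centred on its own mean. The 5 nearest were Ephx2 (distance 0.0885), AI662270 (0.347), 9630028I04Rik (0.363), Epb41l3 (0.426) and Lef1 (0.553), a soluble epoxide hydrolase gene, 2 long non-coding RNA genes, a membrane skeleton gene and a transcription factor gene of the Wnt pathway. Ephx2 had 56.9 and 59.4 CPM in WT and 6.21 and 2.09 CPM in KO. None of the 5 is an imprinted gene of the lists used here, and none is on chromosome 12. AI662270 lies on chromosome 11 and Lef1 on chromosome 3, which are among the shifted chromosomes. Like Meg3, 9630028I04Rik, Epb41l3 and Lef1 passed the filter only through WT, so their KO values are near the bottom of what could be counted. Among the 10 imprinted genes the nearest to Meg3 was Slc38a4 (1.91), followed by Igf2r (2.64), H19 and Impact (3.13 each) and Peg3 (3.21), with Igf2 the farthest (5.29). These distances describe 4 libraries and carry no test.

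Other imprinted genes did not share a direction. Of a list of 52, 50 had a row, 27 passed the filter, 7 were called higher and 2 lower, and their median log2 fold change was −0.06. Of the 7 higher calls, 4 lay on chromosome 6 (Peg10, Sgce, Ppp1r9a and Copg2), whose median was itself 0.92. With chromosomes 3, 6, 8 and 11 set aside, 19 were tested, 3 were higher and 2 lower, with a median of −0.18, beside 471 higher and 633 lower of 7824 and a median of −0.05 over all genes there. By allele, 5 of 15 tested paternally expressed genes were higher and 1 lower (median 0.01), and 2 of 12 maternally expressed genes were higher and 1 lower (median −0.12). With those chromosomes set aside, 3 of 11 paternally expressed genes were higher and 1 lower (median −0.54), and of 8 maternally expressed genes 0 were higher and 1 lower (median −0.12). The 3 higher were Plagl1, Zdbf2 and Dio3. Dio3 passed the filter only through KO, and its call was lost in all 11 alternatives.

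**Figure D4:**
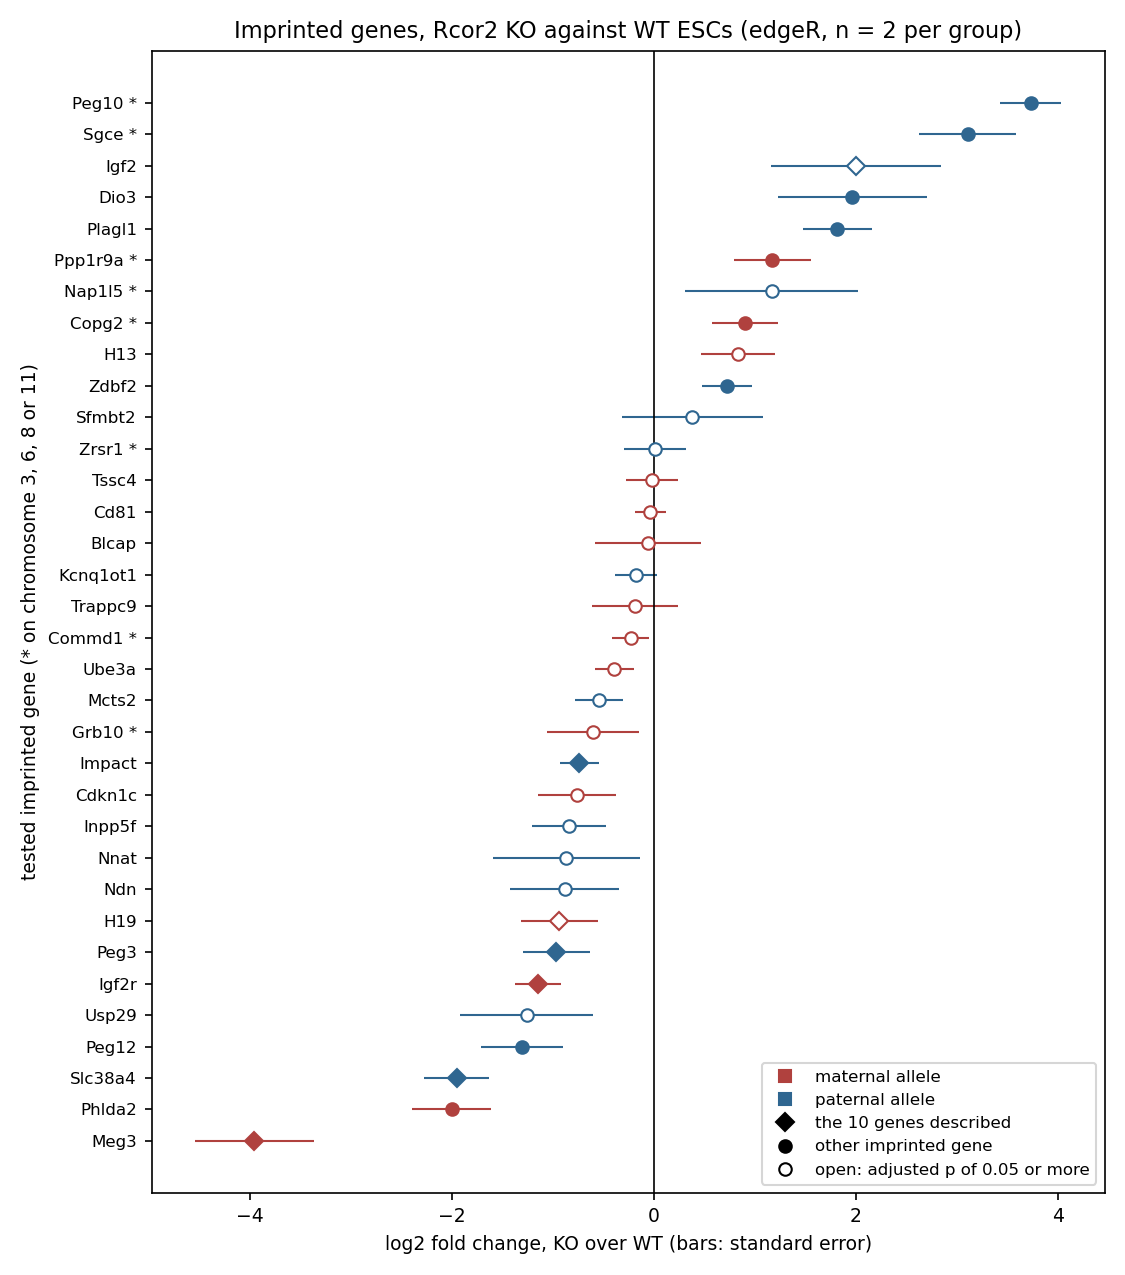
Log2 fold change of KO over WT (x axis, bars are the standard error, n = 2 libraries per group) for the 7 tested genes of the 10 (diamonds) and the 27 other tested imprinted genes (circles), coloured by the allele each is known to be expressed from. Filled symbols passed an adjusted p under 0.05 in edgeR and stars mark genes on chromosomes 3, 6, 8 or 11; Meg3 is lowest at −3.95 and Peg10 highest at 3.73.

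Peg10 and Sgce, paternally expressed neighbours on chromosome 6 that share a promoter region, had the largest increases of the list. Peg10, a retrotransposon-derived gene needed in the placenta, had 7.17 and 10.7 CPM in WT and 120 and 108 CPM in KO, a log2 fold change of 3.73 (SE 0.30), and Sgce, a sarcoglycan gene, had 3.11 (SE 0.48). After centring on the chromosome they were 2.82 and 2.19 and both calls were kept. Without the first WT library Sgce was 2.18 and without the second 4.44. Ppp1r9a (1.17, SE 0.38, edgeR adjusted p 0.0224) and Copg2 (0.90, SE 0.32, edgeR adjusted p 0.0393) were no longer called after centring, at 0.26 and −0.01. DESeq2 called neither (adjusted p 0.134 and 0.141). The Copg2 call was also lost with library size alone (adjusted p 0.0588) and without any 1 of the 4 libraries, and the Ppp1r9a call without the first KO library (0.87) or the first WT library (0.68). Mest, on the same chromosome, had 8 and 1 counts in WT and 22 and 3 in KO and was under the filter.

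Away from those chromosomes, the growth-suppressing zinc finger gene Plagl1 rose from 8.85 and 33.5 CPM in WT to 59.7 and 78.0 CPM in KO. Its log2 fold change was 1.82 (SE 0.34) with an edgeR adjusted p of 3.95e-05, but it was 1.04 without the first WT library and 2.94 without the second, and DESeq2 did not call it (adjusted p 0.216). Zdbf2 was called at 0.73 (SE 0.25, edgeR adjusted p 0.0294), and that call was lost with DESeq2, with library size alone and without either KO library or the first WT library. Phlda2, the maternally expressed brake on placental growth, fell from 37.9 and 37.3 CPM in WT to 11.0 and 7.32 CPM in KO, a log2 fold change of −2.00 (SE 0.39) with an edgeR adjusted p of 9.79e-05. All 11 alternatives kept the Phlda2 call. Peg12 had −1.31 (SE 0.41, edgeR adjusted p 0.0158) but its groups overlapped, and it was −0.24 without the second WT library, −1.98 without the first and −1.90 without the first KO library. DESeq2, limma-voom and the fit without the second KO library did not call Peg12 either.

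Listed imprinted genes that were not called included the cell cycle inhibitor gene Cdkn1c (log2 fold change −0.76, edgeR adjusted p 0.168), Ndn (−0.88, adjusted p 0.273), the growth adaptor gene Grb10 (−0.60, adjusted p 0.398) and the antisense RNA Kcnq1ot1 (−0.18, adjusted p 0.615). Snrpn and Zim1 had no count in any library. Near the other imprinted genes, 42 of 50 (84%) had an RCOR2 summit within 20 kb, beside 74.3% of all genes placed. Of all tested genes, 9483 had one and 732 did not. Neighbours in the list share peaks, as Snrpn and Snurf or Nnat and Blcap do. The strongest peaks of Airn and Ins2 are those already given for Igf2r and Igf2. The 42 are therefore not separate observations, and whether their share is raised was not tested. Of the 40 with a promoter window, 15 had a peak on one. The share of 23.0% over all promoter windows counts windows and not genes, so it is no background for these 15. Of the called genes, Plagl1, Phlda2, Zdbf2, Peg12 and Ppp1r9a were among the 15. Dio3 and Copg2 had no peak on a window. Peg10 and Sgce had no window, so they could not be counted there. A peak at chr6:4746957-4747588, with a fold of 5.75 and a −log10 q of 9.00, lay where their intervals meet. It covered the end of the Sgce interval at 4747204 and the start of the Peg10 interval at 4747306. Kcnq1ot1 and Grb10, not called, were among the 15 too. The peak of Plagl1, at chr10:13090526-13091255, had a fold of 6.44. The strongest peak within 20 kb of these genes was that of Grb10, which was not called, with a fold of 31.2 and a −log10 q of 138.5.

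Genes that set or keep imprints were read from a list of 16, all of which passed the filter; 3 were called higher, 3 lower, and the median log2 fold change was 0.15. Dnmt3l, the cofactor of the de novo DNA methyltransferases, stood at 22.3 and 30.5 CPM in WT and 147 and 166 CPM in KO, a log2 fold change of 2.60 (SE 0.24) with an edgeR adjusted p of 3.90e-13. Dppa3, which protects imprints after fertilisation, fell from 272 and 247 CPM in WT to 111 and 74.8 CPM in KO, which is −1.47 on the log2 scale (SE 0.18) with an edgeR adjusted p of 7.12e-09, although its chromosome, 6, had a median of 0.92. Centred on that chromosome Dppa3 was −2.39. The methyltransferase gene Dnmt3a was lower (−1.03, SE 0.29, edgeR adjusted p 0.00631), a call lost with DESeq2 and without the second WT library (−0.49). Tet1, a methylcytosine dioxygenase gene, was lower by a small amount (−0.43, SE 0.15, edgeR adjusted p 0.0287), and this call was lost in several alternatives, among them without the second KO library (−0.24). Setdb1 (1.43, SE 0.38) and Tet2 (0.86, SE 0.18) were called higher on chromosome 3, but neither was called after centring on the chromosome, with Setdb1 at 0.95 (adjusted p 0.0863) and Tet2 at 0.39 (adjusted p 0.160). Setdb1 was 0.89 and not called without the second KO library and 2.13 without the first WT library, and Tet2 was 0.50 and not called without the first WT library. Zfp57 (0.15, adjusted p 0.792) and its partner Trim28 (−0.37, adjusted p 0.0824) were not called.

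Of 18 genes of the insulin-like growth factor pathway, Igf2 and Igf2r among them, 11 passed the filter, with 2 called higher, 3 lower and a median log2 fold change of −0.33. The RNA-binding protein genes Igf2bp3 (1.48, on chromosome 6, and 0.56 after centring on it) and Igf2bp2 (0.77) were higher. The binding protein gene Igfbp2 (−0.58) was lower beside Igf2r, and Igf2bp1 was called lower at −0.40 on chromosome 11 but stood at 0.09 and was not called after centring. Leaving out either KO library ended the calls of Igf2bp2, Igfbp2 and Igf2bp1, as did leaving out the first WT library for Igf2bp2 (0.53) and the second WT library for Igf2bp1 (−0.27). DESeq2 called neither Igf2bp2 nor Igf2bp1, and the fit without a filter did not call Igf2bp1 (adjusted p 0.0711). The receptor gene Igf1r was not called (−0.55, SE 0.27, edgeR adjusted p 0.156).

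Some markers of other cell types also differed between the groups. Of 13 trophoblast markers, 7 passed the filter, 6 of them called higher and 1 (Tfap2c) lower in KO. Over all genes tested, 10.4% were called higher and 9.3% lower. Eomes and Gata2 passed the filter only through KO, the group where they are high, so these calls are no test of the list. Gata2 and Tead4 lie on chromosome 6, whose median was 0.92, and stood at 2.14 and 1.93 after centring on it. The 13 trophoblast markers had a summed level of 137 to 187 CPM in WT and 284 to 303 CPM in KO. Tfap2c gave most of it in WT, with 80.5 and 136 CPM, and 46.9 and 30.9 CPM in KO. Prl3d1 was at 0 in all libraries, and Cdx2 had 0 and 0 counts in WT and 8 and 6 in KO. Of 15 primitive endoderm markers, 5 passed the filter and 2 (Dab2 and Lama1) were called higher, with a summed level of 880 to 947 CPM in WT and 1094 to 1153 CPM in KO, most of it from Sparc, and Foxa2 at 0. Of 13 fibroblast markers, 2 passed the filter and 1 (Fbln2) was called lower. Fbln2 passed the filter only through WT, the group where it is high. The 13 fibroblast markers had a summed level of 29.9 to 41.1 CPM in WT and 15.2 to 21.1 CPM in KO. The part of these cell types in the levels of Meg3, Igf2 and the other imprinted genes was not tested.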

How the data were processed

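RNA was measured in 4 libraries, 2 WT and 2 Rcor2 KO, grouped by their labels. The authors deposited unnormalized read counts for each gene symbol. All 4 columns of this table matched the files of the single libraries, and 0 columns lacked a sample. Per the submitters' processing notes, the tools were STAR 2.5.2b, Bowtie2 2.3.4.1, Trimmomatic 0.36, featureCounts, Subread, SAMtools 1.8, MACS2 2.1.1.20160309, bedtools 2.25.0 and HOMER, and the builds mm10 and GRCm38, with no step stated for any. The sources used here do not give how strand, molecular identifiers and multi-mapping reads were handled, nor which control served peak calling. Totals ran from 1286393 to 2951498 counts per library, which limits low genes to wide errors. Of 25131 rows, 26 named by a date held 0.136% to 0.158% of the counts and were not named. The peak list gives a fold enrichment (a ratio) and a −log10 q per peak, deposited by the authors as 1 list for both ChIP samples. The peak lists of the TALE pull-downs were not used here.

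Counts were tested in R 4.3.3 with edgeR 4.0.16 (filterByExpr, TMM scaling, quasi-likelihood test, two-sided, Benjamini-Hochberg over all 10241 genes tested, threshold 0.05). Fold changes are KO over WT, the standard error is the size of the log2 fold change divided by the root of F, and CPM are counts per 1e6 after TMM scaling. Steps were checked on simulated data. Alternatives were library size alone, DESeq2 1.42.0, limma-voom (limma 3.58.1), no filter, each library left out, the replicate number as a block, centring on each chromosome and leaving out chromosomes 3, 6, 8 and 11. Nothing in the labels names separate cultures behind the replicates, and p-values therefore measure only how these libraries spread, which may be technical. Rows were placed on RefSeq GRCm38.p6 by symbol (24696) or synonym (332), and promoter sequences are RefSeq's.

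The 10 genes and all lists were chosen with earlier results of these data known. Named besides them were called genes of the fixed lists, a few listed genes whatever their values, tested neighbours within 1 Mb of the chromosome 12 domain or 200 kb of the other genes, and the 5 genes nearest to Meg3.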

Additional observations from a re-analysis of the deposited data

How the results depend on the processing

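The counts of the 10 genes called lower (5) ran from 4 to 6 over the 11 alternatives, and 0 were called higher in each. Meg3, Igf2r and Slc38a4 kept their calls throughout, and no log2 fold change of the 7 tested genes changed sign. The deviations of libraries with the same replicate number had a correlation of −0.05 over 10241 genes. Counting error can hide a pairing in this value, so it does not show whether the numbers mark a shared culture or day. With the replicate block, 5 of the 10 genes were lower. There were then 6 higher and 2 lower calls among other imprinted genes, and 969 higher and 853 lower over all genes. Of the named genes called without the block, Dio3 (adjusted p 0.0721), Igf2bp1 (0.0936) and Tet1 (0.0519) were not called with it. Over all genes, 1062 higher became 650 with DESeq2, 643 with centring on each chromosome and 464 with chromosomes 3, 6, 8 and 11 left out, and 569 to 920 with 1 library left out. The 952 lower became 506 with DESeq2, 685 with centring, 467 with those chromosomes left out and 440 to 779 with 1 library left out. Among other imprinted genes, 7 higher became 4 with library size alone, 2 with DESeq2, 4 with centring, 2 with those chromosomes left out and 3 to 5 with 1 library left out; 2 lower became 1 with DESeq2, 1 with limma-voom and 1 to 2 with 1 library left out. Leaving chromosomes or libraries out removes genes or samples from the fit; for the other settings the cause was not tested. With a fold of at least 5, 4 of the 10 genes had a peak within 20 kb in place of 7, beside 50.2% of all genes placed. Rian, Mirg and Dlk1 had at most 9 counts in any library; whether more depth would call them was not tested. Groups of 2 libraries could not be screened for outliers.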
